A study of Mus musculus with 1778 samples.

Results

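The cells described here are Sox10-positive, Wnt1-lineage cranial cells of mouse embryos at 4 and 6 somites, the earliest stages sampled. Sox10 is a SoxE transcription factor that crest cells switch on as they leave the dorsal neural tube. Members were chosen by their own reads: a cell was taken where Sox10 reached at least 50 CPM (counts per 1000000 reads on genes, spike-ins and the ribosomal RNA gene Rn45s left out) and the cardiac actin gene Actc1 stayed under 50 CPM. This took 22.8% of the 1055 cells of both stages that had at least 50000 reads and 1500 detected genes. The whole series holds 1728 such cells. The members were 18 cells of 4 somites, 14 of plate D and 4 of plate F, and at 6 somites 92 cells of plate E, 64 of plate H, 37 of plate B, 19 of plate A and 11 of plate F, where each letter stands for 1 number carried by the labels, in rising order. All embryos were C57BL/6 and carried Wnt1::Cre with Rosa26TdTomato, so every group shares both alleles. Single tdTomato cells had been sorted into lysis buffer and read by Smart-Seq2, a plate assay that covers whole transcripts and marks no single molecules. The Wnt1 promoter drives Cre in the dorsal neural tube, and the label stays in all descendants, so the sort holds neural tube cells beside crest. Comparison cells of the same stages were the Sox10-low cells, under 10 CPM of Sox10 (72.1% of the 1055), and within them Sox9-positive cells (12% of the 1055) with at least 50 CPM of Sox9 and under 50 CPM of Actc1. Later Sox10-positive cells, chosen by the same limits, were 64.3% of kept cells at 8 somites and 76% at 10 somites.

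Neural crest cells arise at the border of the neural plate, lose the epithelial state and migrate, and in the head they give rise to cranial ganglia, glia, pigment cells and the ectomesenchyme of face and skull. Plate border genes (Pax3, Msx1, Zic genes) are followed by specifier genes (Foxd3, Sox9, Snai1, Ets1, Tfap2 genes) and then by Sox10, which sustains receptors and glial genes such as Erbb3 and Cdh19. Anterior neural plate cells instead carry Otx, Six3 and Hesx1.

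Sox10 is the value that chose the cells and is given as a description. The lowest members held 52.9, 55.2, 57.5 and 57.8 CPM, and the highest cells left out under the limit held 47.7, 48.4, 48.5 and 49.3 CPM. Another 42 cells lay between 10 and 50 CPM, and 97.5% of the Sox10-low cells had 0 Sox10 reads, with a highest value of 9.83 CPM. The Actc1 limit removed 11 cells, whose lowest value was 51.6 CPM. The highest Actc1 value in a member was 42.7 CPM. Across members Sox10 had a median of 314.4 CPM and a highest value of 1330 CPM.

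**Figure D1:**
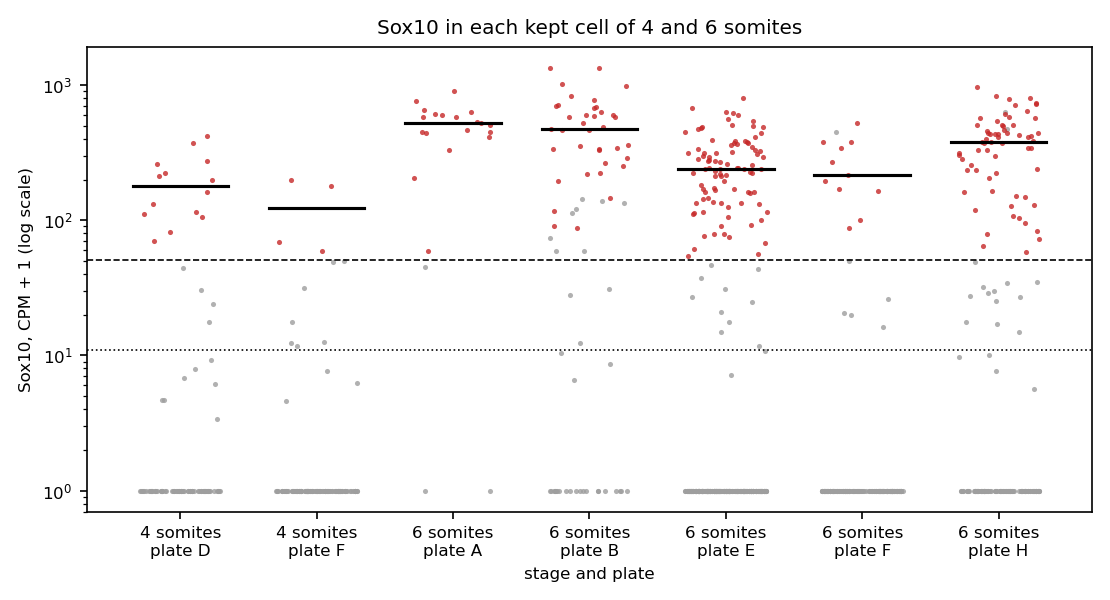
Sox10 in each kept cell of 4 and 6 somites (CPM + 1, log axis) by stage and plate letter. Red points are the members, grey points the other cells, bars the medians of the members, the dashed line 50 CPM and the dotted line 10 CPM. Most grey points lie at 0 reads, and the members' medians run from 122.9 to 520.7 CPM.

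The number in each label is read here as a plate, though the labels do not say what it means. Members were 3.12% of kept cells (exact 95% binomial interval 0.858 to 7.81%) at 4 somites on plate F and 14 of 92 (15.2%, 8.58 to 24.2%) on plate D. At 6 somites they were 11 of 180 (6.11%) on plate F, 24.7% on plate E, 34% on plate H, 37 of 72 (51.4%) on plate B and 19 of 22 (86.4%) on plate A. The share thus varied more between plates of 6 somites than between the stages, and the labels do not say what each plate was sorted to hold. Members had a median of 326044 reads without Rn45s and 7027 detected genes, and Sox10-low cells had 378639 reads and 6445 genes. The labels name no embryo, so each stage is 1 pool, cells were not treated as replicates, no test was made, and intervals cover counting error only. CPM carries no correction for gene length, so levels are compared between groups of cells and not between genes.

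The label of crest was checked against 9 other crest markers (Foxd3, Sox9, Tfap2a, Tfap2b, Ets1, Erbb3, Ngfr, Snai2 and Twist1). At 50 CPM or more, 84.6% of members held at least 3 of them, against 2.1% of Sox10-low cells (16 cells) and 11.8% of Sox9-positive Sox10-low cells (15 cells). Only 4 members held 0. Of 6 neuroepithelium markers (Sox1, Sox2, Sox3, Sox21, Pax6 and Hes5), 90.5% of members held 0 at that level, as did 34.7% of the Sox10-low cells. Snai2 and Twist1 contributed little: 3 members reached 50 CPM of Snai2 and 4 reached 50 CPM of Twist1.

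Markers of other cell types were read in the same cells. Defining blood and heart genes were at or near the floor in members: Hba-a1, Ptprc, Tyrobp, Tnni1 and Nkx2-5 had 0 reads, 0 of 10 blood genes and 0 of 12 cardiac genes passed 5 CPM over all members, and the blood sum per cell ran from 0 to 1961 CPM with a median of 0. Actc1 is 1 of the 12 cardiac genes, and the choice of members held it under 50 CPM. The low cardiac values in members are therefore partly set by that choice. None of the head mesoderm or notochord genes passed 5 CPM, and of the endoderm genes only Cldn6 did. Of 12 endothelial genes, Kdr, Esam, Egfl7 and Etv2 passed 5 CPM. The per-cell endothelial sum ran from 0 to 2290 CPM with a median of 52.61 in members and from 0 to 8746 CPM with a median of 37.17 in Sox10-low cells. Of 14 surface ectoderm and placode genes, 8 passed 5 CPM. Their sum ran from 0 to 13780 CPM in members, median 133.5, and from 0 to 9390 CPM in Sox10-low cells, median 166.6. Krt8, a simple keratin, reached 50 CPM in 50.6% of members and 33.5% of Sox10-low cells. In summed reads Krt8 was instead lower in members, under 2-fold. Its log2 ratio was -0.56 over the stage and plate sets with at least 5 cells of each group. In all, 43.6% of members and 53.7% of Sox10-low cells held at least 50 CPM of 2 or more markers of 1 such list, mostly of surface ectoderm (37.8% and 46.1%). Values without these cells are given beside each list whose count of 2-fold genes they moved by over 1.5 times, and beside each gene named against the Sox10-low cells whose direction they turned.

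Against Sox10-low cells, weighted to the members' stages and plates, 2.66% of the 10139 genes with at least 5 CPM in either group were at least 2-fold higher in members and 7.84% at least 2-fold lower. The median log2 ratio of all genes read was -0.02. Plate A held only 2 Sox10-low cells, which stood for its 19 members in this weighting. Ratios over the 5 larger sets, those with at least 5 cells of each group, are therefore given beside some genes and lists. A ratio of 2-fold or more is the only call used here. Sox10 itself stood at 0.272 CPM in Sox10-low cells, which the choice of cells set.

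The leading higher genes were crest regulators, receptors and glial genes. Ngfr, the low-affinity neurotrophin receptor, stood at 167.1 CPM (95% Poisson interval 164.4 to 170) in members and 1.92 CPM (1.70 to 2.41) in Sox10-low cells, a log2 ratio of 6.44. Summed by stage and plate, Ngfr ran from 29.2 to 272.7 CPM in the members of the 7 sets and from 0 to 2.66 CPM in their Sox10-low cells, with no overlap. In single cells thinned to 50000 reads, 72.1% of members (exact binomial interval 65.9 to 77.7%) had an Ngfr read and 3.29% of Sox10-low cells did, and without thinning the shares were 80.1% and 3.68%. Ngfr was still unevenly spread, with quartiles of 14.1 and 261.5 CPM over members.

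Ets1, an ETS factor of cranial crest, stood at 465.9 against 24.2 CPM, a log2 ratio of 4.27. It ran from 196.5 to 634.4 CPM over the members' stage and plate sets and from 0 to 44.2 CPM over those of Sox10-low cells. Ets1 was broad within members, as 94.2% reached 50 CPM. Sox9, the other SoxE factor and an earlier crest gene, stood at 280 against 27.5 CPM (log2 ratio 3.35) and ran from 188.1 to 618.6 CPM against 10.2 to 60.03 CPM. Snai1, a repressor of epithelial genes, stood at 95.5 against 9.14 CPM (3.39), from 45.5 to 130.6 against 2.25 to 15.1 CPM. For Ets1, Sox9 and Snai1, as for Ngfr, the members' sets did not overlap those of the Sox10-low cells. The smallest sets were 4 members (4 somites, plate F) and 2 Sox10-low cells (6 somites, plate A). The share of all genes read whose sets separate in this way is not given here.

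Tfap2b, an AP-2 factor, stood at 89.1 against 4.28 CPM (log2 ratio 4.38). Its lowest member set, the 4 cells of 4 somites on plate F, held 4.86 CPM and overlapped the Sox10-low sets, which reached 5.94 CPM. Foxd3, a forkhead crest specifier, stood at 30.7 against 1.24 CPM (4.62), from 16.1 to 154.6 against 0 to 5.30 CPM. Mef2c, a MADS-box factor, stood at 60.5 against 7.76 CPM (2.96), and its 4 somite sets, at 0 and 11.6 CPM, lay within the Sox10-low range of 0 to 15.5 CPM. So Foxd3 separated the sets at both stages, and Mef2c only at 6 somites.

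Of the crest transcription factor list, 23 of 26 genes were read, of which 18 passed 2-fold upward and 0 downward, and the median log2 ratio was 1.78. Without cells that held markers of other types 17 of 23 passed upward and 0 downward, median 2.83. Sox10 is 1 of the 18. Tfap2a (2.45), Sox5 (2.16), Msx2 (2.05), Pax3 (1.78) and Id2 (1.17) kept their direction in all 5 stage and plate sets with at least 5 cells of each group. Pax7 (1.59), Tfap2c (1.38), Msx1 (1.22) and Lmo4 (1.18) did so in 4 of the 5. Nr2f1, an orphan nuclear receptor, had a ratio that ran from 0.61 to 3.88 over these sets. The genes under 2-fold were Mycn (0.70), Rxrg (0.67), Zeb2 (0.61), Myc (-0.02) and Nr2f2 (-0.59). Snai2, often used as a crest gene in chick, was under 5 CPM in both groups, at 1.95 against 3.63 CPM, as were Sox8, at 0.852 against 0.220 CPM, and Sox6, at 4.15 against 2.48 CPM.

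**Figure D2:**
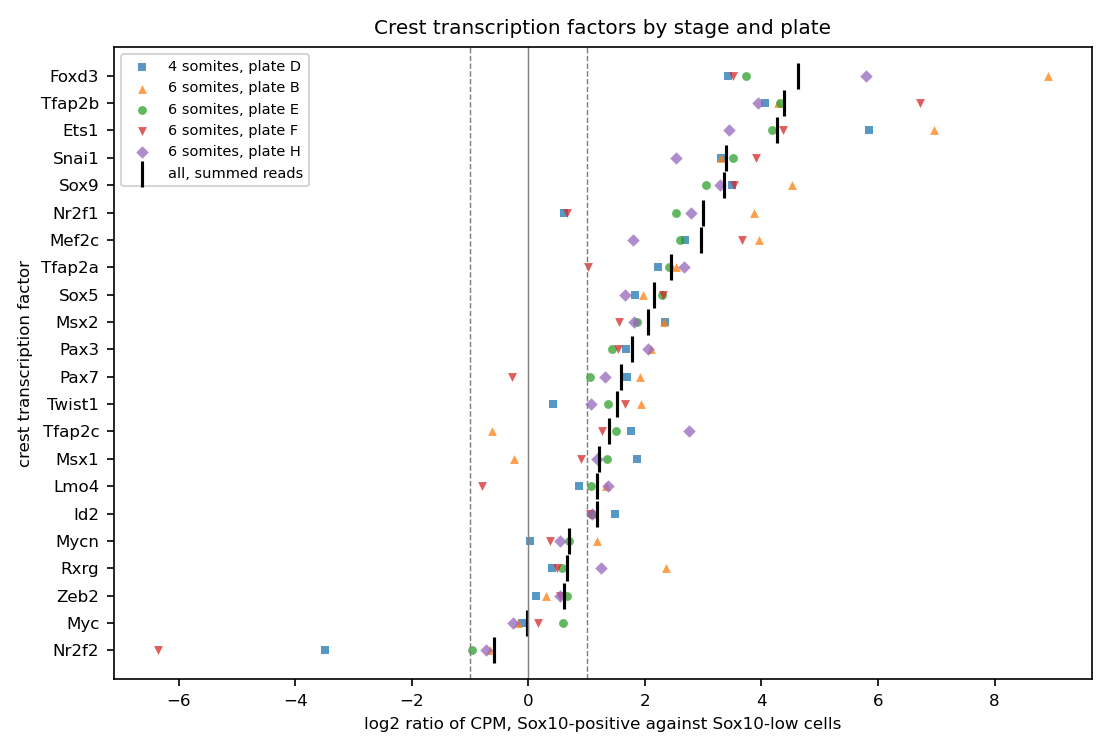
Log2 ratio of CPM of crest transcription factors in Sox10-positive against Sox10-low cells, for each stage and plate letter with at least 5 cells of both groups (coloured marks) and for the summed reads (black bars). Dashed lines mark 2-fold, Sox10 is left out because it chose the cells, and Foxd3 to Mef2c lie to the right of 0 in all 5 sets.

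Among receptors and surface proteins, 9 of 24 genes read passed 2-fold upward and 3 downward, and the median log2 ratio was 0.58. Without cells that held markers of other types the counts were 14 higher and 1 lower, median 1.30. Ednrb, the endothelin receptor of crest, stood at 56.7 against 3.69 CPM (3.94), from 34.9 to 68.5 against 0 to 9.99 CPM. Erbb3, the neuregulin receptor, stood at 19.8 against 1.78 CPM (3.47), Gfra1, a GDNF co-receptor, at 30.02 against 2.81 CPM (3.42), and Plxna4, a semaphorin receptor, at 7.22 against 0.153 CPM (5.54). Itga4, an integrin subunit, had a ratio of 3.57 over all members and -0.56 at 4 somites alone. The lower genes were Gpc3 (-1.38), a glypican, Pdgfrb (-1.22) and Nrp1 (-1.12). Pdgfrb was at 2.95 without cells that held markers of other types, and Nrp1 at 0.18 at 4 somites alone. Receptors of endothelin, neuregulin and neurotrophin were therefore all read at higher levels in Sox10-positive cells.

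Genes known from glia were among the leading ones. Cnp, a myelin enzyme, stood at 182.8 against 20.8 CPM (log2 ratio 3.14). Of the glia list, 6 of 12 genes were read, with 5 at least 2-fold higher, among them Cdh19, Foxd3, Erbb3 and Mbp, Sox2 lower and a median of 3.73. S100b, Gfap and Fabp7 were under 5 CPM in both groups. Cdh19, a cadherin of Schwann cell precursors, stood at 8.79 against 0.0749 CPM, yet only 17 members reached 50 CPM. Of the remaining leading genes, Fam212a (also called Inka1), an inhibitor of a p21-activated kinase, stood at 145.4 to 150.5 CPM (95% Poisson interval) against 16.8 CPM (3.14), and Mcc at 107.4 against 10.5 CPM (3.35). Of neuron genes 5 of 16 were read, 1 higher and 3 lower, and of melanocyte genes 3 of 10, with Ednrb and Pmel higher. Without cells that held markers of other types 1 of 3 melanocyte genes was higher.

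Sequence upstream of the leading genes is shown because these genes were higher together in Sox10-positive cells. Promoters came from RefSeq on GRCm38.p6, and 6 of the 12 leading higher genes matched, with 8 promoters. The 250 bases before each start were searched on both strands for ACAAAG, a core SOX motif, and 3 of the 8 held it (37.5%), against 12% of the 10446 promoters matched to genes read in either group. For GCCNNNGGC, an AP-2 motif that can share only an end base with it, the counts were 2 of 8 (25%) and 21.2%. With 8 promoters these shares are descriptions. The 3 with ACAAAG belong to Cnp (chr11:100574689-100574938, plus strand), Mef2c (chr13:83573357-83573606, plus strand) and Snai1 (chr2:167537945-167538194, plus strand), and are printed 5′ to 3′ in the direction of the gene with the motif, or its reverse complement, in capitals.
Cnp: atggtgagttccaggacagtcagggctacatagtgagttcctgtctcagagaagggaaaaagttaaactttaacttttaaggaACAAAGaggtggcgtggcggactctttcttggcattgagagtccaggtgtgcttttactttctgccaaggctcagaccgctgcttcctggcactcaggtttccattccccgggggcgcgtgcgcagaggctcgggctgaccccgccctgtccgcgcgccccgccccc
Mef2c: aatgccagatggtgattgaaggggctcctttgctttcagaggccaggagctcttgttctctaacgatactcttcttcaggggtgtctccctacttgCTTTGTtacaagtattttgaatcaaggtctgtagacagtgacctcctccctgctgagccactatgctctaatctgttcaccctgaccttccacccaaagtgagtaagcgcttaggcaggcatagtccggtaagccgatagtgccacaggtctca
Snai1: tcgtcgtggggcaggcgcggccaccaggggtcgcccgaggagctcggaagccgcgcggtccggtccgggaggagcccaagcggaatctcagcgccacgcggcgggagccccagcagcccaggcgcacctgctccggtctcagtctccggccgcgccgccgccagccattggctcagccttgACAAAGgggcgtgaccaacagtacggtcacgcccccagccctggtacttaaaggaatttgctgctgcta
In each the motif lies within the printed bases, 69 before the start in Snai1 and farther upstream in Cnp and Mef2c. Mef2c had 3 promoters in the table, and the other 2 did not hold these letters. In the GENCODE vM21 models of the same build, Sox10 lies on chromosome 15 from 79154908 to 79165240, Ngfr on chromosome 11 from 95568818 to 95587735, Ets1 on chromosome 9 from 32636221 to 32757820 and Sox9 on chromosome 11 from 112782224 to 112787760.

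Neural plate genes were lower. Of the neuroepithelium list 23 of 26 genes were read, of which 0 passed 2-fold upward and 21 downward, and the median log2 ratio was -2.30. Hes3, a Notch-related repressor of neural progenitors, stood at 10.3 against 114.5 CPM (-3.47), Hes5 at 1.20 against 52.3 CPM (-5.44) and Sox21 at 12.2 against 91.04 CPM (-2.90). Over the 5 larger sets Hes5 was at 1.02 against 12.8 CPM (-3.64), while Hes3 was at -3.84 and Sox21 at -3.37. Sox2, a factor of neural progenitors, stood at 9.57 against 50.2 CPM (-2.39) and ran from 3.69 to 22.8 CPM over the members' sets and from 30.9 to 123.6 CPM over the Sox10-low sets. The 2 genes not 2-fold lower were Nes (0.29) and Wnt8b (-0.66). Over the 5 larger sets 21 of 23 were lower too, but there Wnt8b was at -2.31 and Notch1, at -0.67, was under 2-fold. Sox10-positive cells thus lay below the Sox10-low cells of their own plates in Sox2 throughout.

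All 9 anterior identity genes that were read were at least 2-fold lower, median -2.74. Otx2, the homeobox gene of forebrain and midbrain, stood at 14.5 CPM (13.7 to 15.3) against 115.9 CPM, a log2 ratio of -3.00, and ran from 1.34 to 30.9 against 69.1 to 374.2 CPM. Otx1 stood at 4.92 against 57.9 CPM (-3.56), Rax at 2.29 against 32.6 CPM (-3.83) and Hesx1 at 2.25 against 25.7 CPM (-3.51). By cell, Otx2 reached 50 CPM in 22 members (9.13%) and in 46.8% of Sox10-low cells. Of 6 hindbrain and Hox genes read, 0 were higher and 3 lower, with Irx3 at -1.25, and without cells that held markers of other types 1 of 6 was higher and 2 lower. The Hox sum reached 50 CPM in 11 members (4.56%) and 3.68% of Sox10-low cells. Of members, 21 held Otx2 alone, 10 Hox genes alone, 1 both and 86.7% neither, so most carried no positional mark at this level. On plate E, 0 of 92 members held Otx2 and 4 held Hox genes, while on plate A, 6 of 19 held Otx2 and 0 Hox genes.

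Junction genes were lower without an even shift in migration genes. Of the epithelial junction and polarity list, 17 genes were read, 0 were higher and 10 at least 2-fold lower, median -1.09. Epcam stood at 36.6 against 80.99 CPM (-1.15), while Cdh1, E-cadherin, stood at 32.96 against 53.3 CPM (-0.69) and Cdh2, N-cadherin, at 123.3 against 190 CPM (-0.62), both under 2-fold. Cldn6 and Cldn7 had ratios of -2.03 and -2.29. Over the 5 larger sets Cdh1 was at -1.06, past 2-fold, Cdh2 at -0.42, Cldn6 at -3.00 and Cldn7 at -3.92. Without cells that held markers of other types Cldn6 was at 0.73, Cldn7 at 2.38 and Epcam at 0.17, and 6 of 11 junction genes read were lower and 0 higher. Cldn6 and Epcam are themselves among those markers. Of 29 EMT, adhesion and matrix genes read, 5 were higher and 5 lower, median 0.11, and without those cells 9 and 1, median 0.58. Cdc42ep1, an effector of the GTPase Cdc42, stood at 103.7 against 18.2 CPM (2.51) and Cdh6, a cadherin of early crest, at 142.3 against 40.3 CPM (1.82). Fibronectin, Fn1, stood at 63.4 against 181.1 CPM (-1.51).

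Dorsal neural tube and plate border genes were mixed, with 6 of 13 read higher, 2 lower and a median of 0.90. Over the 5 larger sets 3 of 13 were higher and 2 lower, median 0.53, with Wnt3a at 0.99. Pax3 stood at 81.2 against 23.6 CPM (1.78) and Wnt3a at 12.1 against 5.25 CPM (1.20), while Gbx2 (-1.69) was among the lower. Wnt1, whose promoter drives the label, stood at 95.4 against 51.1 CPM (0.90), under 2-fold. Ectomesenchyme genes were mixed too, with 4 of 11 higher (Dlx2 at 4.36, Col1a2 at 2.94, Pdgfra at 1.55 and Twist1 at 1.53) and 3 lower, among them Foxc1 and Foxc2. Foxc1 and Foxc2 are also known from head mesoderm, and without cells that held markers of other types 7 of 8 ectomesenchyme genes read were higher and 0 lower, median 3.17 against 0.65. Foxc1 was then at 1.35 and Foxc2 at 6.79, and Foxc2 is among the markers used. At 4 somites alone Pdgfra was at -0.26.

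Signalling lists differed from each other, and for each the second pair of counts leaves out cells with markers of other types. Of 13 BMP and TGFb genes read 5 were higher and 1 lower, median 0.85, then 7 of 12 and 0, median 1.21. Id3, an early target of BMP, stood at 869 against 350 CPM (1.31), from 1.15 to 1.53 over the 5 sets, and Id4 at 12.8 against 3.79 CPM (1.76). Of 12 Notch genes 0 were higher and 7 lower, median -1.02, then 0 and 4 of 11, median -0.70. The ligands Dll1 (-2.30), Dll3 (-4.76) and Jag1 (-1.35) were among the 7. Of 13 FGF genes 1 was higher (Spry4, 2.02) and 4 lower, among them the receptors Fgfr1 (-1.18) and Fgfr2 (-1.46), median -0.52, then 1 and 4 of 13. Of 12 Wnt genes 1 was higher (Lef1, 1.13) and 4 lower, then 2 and 4 of 12, with the secreted antagonists Dkk1 at 9.11 against 73.2 CPM (-3.00) and Sfrp1 at 44.3 against 130.6 CPM (-1.56). Of 11 retinoic acid genes 1 was higher (Rara, 2.11) and 5 lower, then 3 and 4 of 11. The lower ones were led by Cyp26a1, which degrades retinoic acid, at 4.96 against 63.6 CPM (-3.68).

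The other leading lower genes were Ntn1, the guidance cue netrin, at 2.78 against 55.9 CPM (-4.33), Fam181b at 24.4 against 192.7 CPM (-2.98), Irs4, an insulin receptor substrate, at 13.2 against 94.8 CPM (-2.84), Fst, the activin antagonist follistatin, at 16.1 against 87.4 CPM (-2.44), Nuak2 at 26.4 against 142.8 CPM (-2.43) and Trp53i11 at 49.3 against 259.1 CPM (-2.39). Cell cycle genes were near even: 0 of 30 S phase genes (median -0.20) and 0 of 33 G2M genes (0.11) passed 2-fold. Of 18 glycolysis and hypoxia genes 1 was higher and 2 lower, the glucose transporters Slc2a1, at 1331 against 3186 CPM (-1.26), and Slc2a3, at 648.4 against 1900 CPM (-1.55). Of 14 p53 and apoptosis genes 1 was higher, Gadd45a, a stress and growth arrest gene, at 56.3 against 11.1 CPM (2.34), and 2 lower. Of 11 stress genes 0 were higher and 1 lower, median -0.29. Without cells that held markers of other types, 2 glycolysis and hypoxia genes were higher and 2 lower, 1 p53 and apoptosis gene was higher and 1 lower, and 1 stress gene was higher and 0 lower.

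Of 22 pluripotency and early embryo genes 9 were read, 0 were higher and 3 at least 2-fold lower (Pim2 at -2.17, Sall4 at -1.03 and Fgf5), median -0.18. Fgf5 was at 0.08 without cells that held markers of other types. Over the 5 larger sets Sall4 was at -0.86, under 2-fold. Lin28a and Lin28b, RNA-binding proteins that block maturation of let-7, were near even, at 186.5 against 192.6 CPM (-0.05) and 101.6 against 91.1 CPM (0.16). Pou5f1, which encodes Oct4, stood at 6.47 against 11.7 CPM (-0.86), under 2-fold, and reached 50 CPM in 5 members. Nanog was under 5 CPM in both groups, at 0.380 against 3.46 CPM, and reached 50 CPM in 0 members, which allows a share of up to 1.24%, and in 34 Sox10-low cells.

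**Figure D3:**
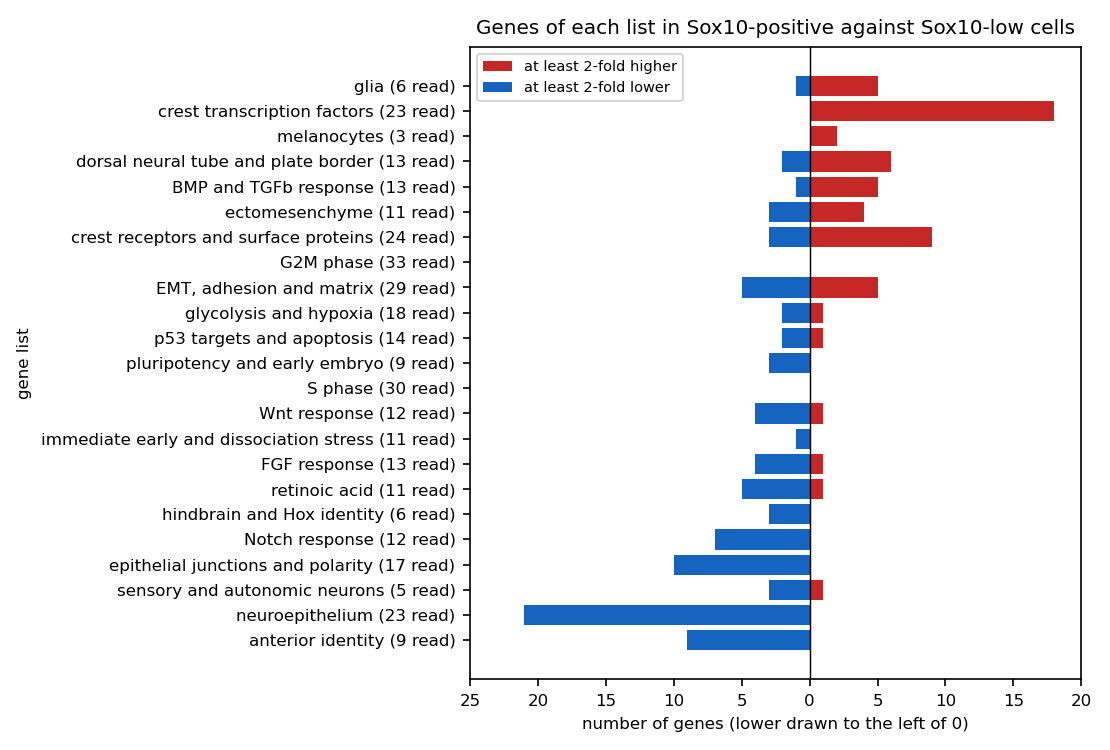
Number of genes at least 2-fold higher (red, right) and lower (blue, left) in Sox10-positive than in Sox10-low cells for each gene list, in order of the list's median log2 ratio, with the number of genes read in brackets. Crest transcription factors have 18 of 23 higher and 0 lower, and neuroepithelium has 0 higher and 21 of 23 lower. Sox10, which chose the cells, is counted among the 18.

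Sox9-positive Sox10-low cells, a subset of the Sox10-low cells, show how members differ from cells that hold the earlier SoxE gene without Sox10. The comparison uses the same members as the one above, and its cells were chosen on Sox9, so Sox9 itself (292.5 against 146.7 CPM) is a description. On the 4 stage and plate sets that both groups share with at least 5 cells, plus 2 smaller ones, the members (all but those of plate A) were set against the Sox9-positive cells. Of 10030 genes, 5.17% were at least 2-fold higher in members and 7.32% lower. On plate B a single comparison cell stood for 37 members, so ratios over the 4 larger sets alone are given where they moved by over 1.5 times.

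Ngfr stood at 161.1 to 166.9 CPM (95% Poisson interval) against 0.534 CPM (log2 ratio 8.24), Fam212a at 145.3 against 4.15 CPM (5.13), Ets1 at 502.4 against 24.6 CPM (4.35), Mef2c at 56.7 against 4.17 CPM (3.76) and Cnp at 178.8 against 13.3 CPM (3.75). These ratios had 1 sign in all 4 larger sets, from 4.86 to 10.11 for Ngfr and from 3.95 to 6.03 for Ets1. Pax3 (0.36), Wnt1 (0.27) and Zeb2 (0.02) differed by less than 2-fold, at 86.7, 105.4 and 67.8 CPM in members. Foxd3 stood at 32.7 against 7.96 CPM (2.04), Tfap2b at 91.9 against 19.04 CPM (2.27) and Ednrb at 59.3 against 7.88 CPM (2.91). Sox9-positive cells were therefore near the members in dorsal genes and far below them in Ngfr and Ets1.

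Of 24 crest transcription factors read in this comparison 11 were higher and 2 lower, median 0.95. The 2 were Snai2 and Nr2f2, and over the 4 larger sets 10 of 23 were higher and 0 lower. Sox10, which chose the members, is among the higher genes in both counts. Of dorsal neural tube genes 1 of 14 was higher and 3 lower, median 0.01. Of neuroepithelium genes 1 of 23 was higher, Nes, and 20 lower, median -1.94, and over the larger sets 0 were higher and 21 lower. Leading lower genes were Cyp26a1 (-6.12), Fst (-3.59), Clu (-3.51), Irs4 (-3.23), Sox21 (-2.98) and Plpp3 (-2.68). Over the 4 larger sets Cyp26a1 was -3.30, Fst -1.74, Clu -1.67 and Plpp3 -1.59, while Irs4 was -3.55 and Sox21 -3.88. Ectomesenchyme genes were 3 higher and 3 lower of 10, and 5 and 1 of 9 over the larger sets, with Col1a2, a collagen chain, at 43.8 against 3.46 CPM (3.66).

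The members' own Sox10 level was compared with other genes across cells, with ranks taken within stage and plate. Of 3899 genes with at least 50 CPM, those most like Sox10 were Fam212a (Spearman rho 0.52), Ngfr (0.49), Cnp (0.42), Mef2c (0.41) and Rasa3 (0.40) over all members. In the 92 cells of 6 somites on plate E the values were 0.37, 0.41, 0.36, 0.41 and 0.25. These points share libraries, depth and the choice by Sox10, and the rho of Sox10 with depth was 0.10. Negative values were as large, at -0.44 for Slc2a3, -0.43 for Map1b, -0.42 for Apoe and -0.41 for Bex4, and on plate E at -0.30, -0.32, -0.19 and -0.30. Other crest genes were less like Sox10, at 0.29 for Ets1, 0.24 for Tfap2b, 0.14 for Ednrb and 0.04 for Sox9, and on plate E at 0.05, 0.01, 0.02 and -0.03. Cells with more Sox10 thus tended to hold more Fam212a and Ngfr, while Sox9 showed no such relation.

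Between stages, the members of 6 somites were set against the 18 of 4 somites. Of 9901 genes, 10.0% were at least 2-fold higher at 6 somites and 5.26% lower. The stages share only plate F, with 11 and 4 members, so stage and plate cannot be told apart over the whole. Sox10 itself stood at 383.4 CPM at 6 somites and 178.1 CPM at 4 somites (1.11).

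Early and dorsal genes stood lower at 6 somites. Foxd3 stood at 25.2 CPM (24.1 to 26.3) against 83.7 CPM (77.5 to 90.2) at 4 somites (-1.73), Sox9 at 247.7 against 590 CPM (-1.25), Pax3 at 73.9 against 150.7 CPM (-1.03) and Wnt1 at 84.99 against 195.3 CPM (-1.20). On plate F alone Foxd3 was -2.50, Wnt1 -1.30, Sox9 -0.56 and Pax3 -0.46. Of 14 dorsal neural tube genes 7 were lower and 1 higher, median -0.85. Pim2, a kinase, stood at 22.6 against 109.3 CPM (-2.27), Bmper, a secreted BMP-binding protein, at 35.95 against 170 CPM (-2.25), Necab3 at -1.87, Tenm4 at -1.68 and Cdh1 at 27.3 against 87.2 CPM (-1.68). On plate F alone Tenm4 was at 0.60. The 4 somite members thus held more Foxd3 and Wnt1 than those of 6 somites. Both were past 2-fold on the shared plate too, whereas Sox9 and Pax3 were under 2-fold there. Ratios past 2-fold were common on plate F, where 2257 of 9813 genes were higher at 6 somites and 1728 lower. With 11 and 4 members, that plate therefore adds little for single genes.

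Other genes stood higher at 6 somites. The crest transcription factor list was even, with 6 of 23 higher, 6 lower and a median of 0.03. Sox10, which chose the members, is among the 6 higher genes. Mef2c stood at 65.97 CPM (64.2 to 67.8) against 8.39 CPM (6.53 to 10.6), a ratio of 2.96, Nrip1 at 58.9 against 10.2 CPM (2.52), Sdc3, a syndecan, at 155.7 against 27.1 CPM (2.52), Sppl2b at 105.9 against 19.6 CPM (2.43), Cdk18 at 2.33 and Pmp22, a myelin protein, at 57.01 against 11.7 CPM (2.28). On plate F alone Sdc3 was at -1.33, Cdk18 at -0.31 and Sppl2b at 0.63. Sox5 (1.78), Itga4 (3.66) and Col1a2 (2.34) were also higher. Of 9 ectomesenchyme genes 6 were higher and 1 lower, median 1.57, and of 24 receptors 8 higher and 1 lower. Ets1 (-0.12), Snai1 (0.12) and Tfap2b (0.74) were under 2-fold over all plates, while on plate F alone they were at 1.21, 1.30 and 4.41. All 4 endothelial genes read were higher at 6 somites too, Kdr at 32.2 against 11.3 CPM, and the part of such RNA in the other differences was not tested.

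Later Sox10-positive cells were compared on plate B, which holds most of those of 8 somites and 37 members of 6 somites. Of 9821 genes, 4.61% were at least 2-fold higher at 8 somites and 4.13% lower. Sox10 (-0.12) and Tfap2b (-0.17) were near even. Sox9 stood at 99.1 against 236.4 CPM (-1.25), Foxd3 at 11.04 against 25.04 CPM (-1.18) and Rxrg, a retinoid receptor, at 9.06 against 29.8 CPM (-1.72), so all 3 were higher in the early cells. On plate D, with 14 members of 4 somites and 14 cells of 8 somites, Sox9 was at -4.32 and Rxrg at -1.55 for 8 against 4 somites. On that plate 1982 of 10224 genes were at least 2-fold higher at 8 somites and 1080 lower, so ratios past 2-fold were common there. The median of detected genes on plate D was 9882 in the cells of 8 somites and 6816 in those of 4 somites.

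Nr2f2, a nuclear receptor, stood at 48.4 against 12.3 CPM (1.97), Cdh19 at 24.4 against 7.39 CPM (1.72), Erbb3 at 50.98 against 22.1 CPM (1.20) and Mef2c at 170.8 against 89.8 CPM (0.93). For 8 against 4 somites on plate D Nr2f2 was at 4.67, Cdh19 at 6.33, Mef2c at 1.56 and Erbb3 at 0.25, under 2-fold. Of 12 ectomesenchyme genes 8 were higher at 8 somites and 0 lower, median 1.13, with Foxc1 at 16.4 against 1.24 CPM (3.68), Dlx2 at 74.7 against 29.7 CPM (1.33) and Alx1, a craniofacial homeobox gene, at 56.3 against 21.7 CPM (1.37). On plate D Foxc1 was at 6.39, Dlx2 at 0.65 and Alx1 went the other way, at -3.12. Tbx3 stood at 44.9 against 4.16 CPM (3.42). Among all genes the leading ones were Tgfbr1 (2.32), Tug1 (2.29), Jag1 (2.17), Mbnl1 (2.06), Slc5a3 (1.77) and Gpc1, a glypican, at 410.6 against 124.6 CPM (1.72). Slc5a3 was at -0.58 when all plates were used, and on plate D Tgfbr1 was at 0.87, Tug1 at 0.66 and Jag1 at 0.35, under 2-fold. The early cells thus held less of the nuclear receptor Nr2f2 and of several ectomesenchyme genes than cells of the same plate number at 8 somites.

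Genes higher in the early cells were led by the receptor Ephb1 (-2.04), the Wnt feedback gene Nkd1, at 42.9 CPM at 8 somites against 170 CPM at 6 (-1.99), Zscan10 (-1.99), Gadd45a, at 17.02 against 66.4 CPM (-1.96), Mid1ip1 (-1.75) and Gt(ROSA)26Sor (-1.73), the transcript of the locus that carries the reporter. On plate D, Nkd1 (-1.82), Zscan10 (-2.02), Gadd45a (-3.08) and Mid1ip1 (-1.36) were lower at 8 than at 4 somites too, as were 1080 of all 10224 genes read there by 2-fold or more. Ephb1 (0.14) and Gt(ROSA)26Sor (0.46) were not lower on plate D, and against members of all plates Gt(ROSA)26Sor was at -0.84. Of 11 Wnt response genes 1 was higher at 8 somites and 3 lower (Nkd1, Axin2 at -1.05 and Sp5 at -1.50), median -0.23. Pou5f1 stood at 0.294 against 5.34 CPM. The 8 somite cells also held more RNA of other types: 6 of 8 endothelial genes read and 3 of 3 blood genes were higher, Hba-x at 126.6 against 20.1 CPM (-0.42 on the log2 scale with no Actc1 limit), and their part in the other differences was not tested. Otx2 was at 5.48 against 21.5 CPM (-1.97), and on plate D it went the other way, at 5.41 for 8 against 4 somites.

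**Figure D4:**
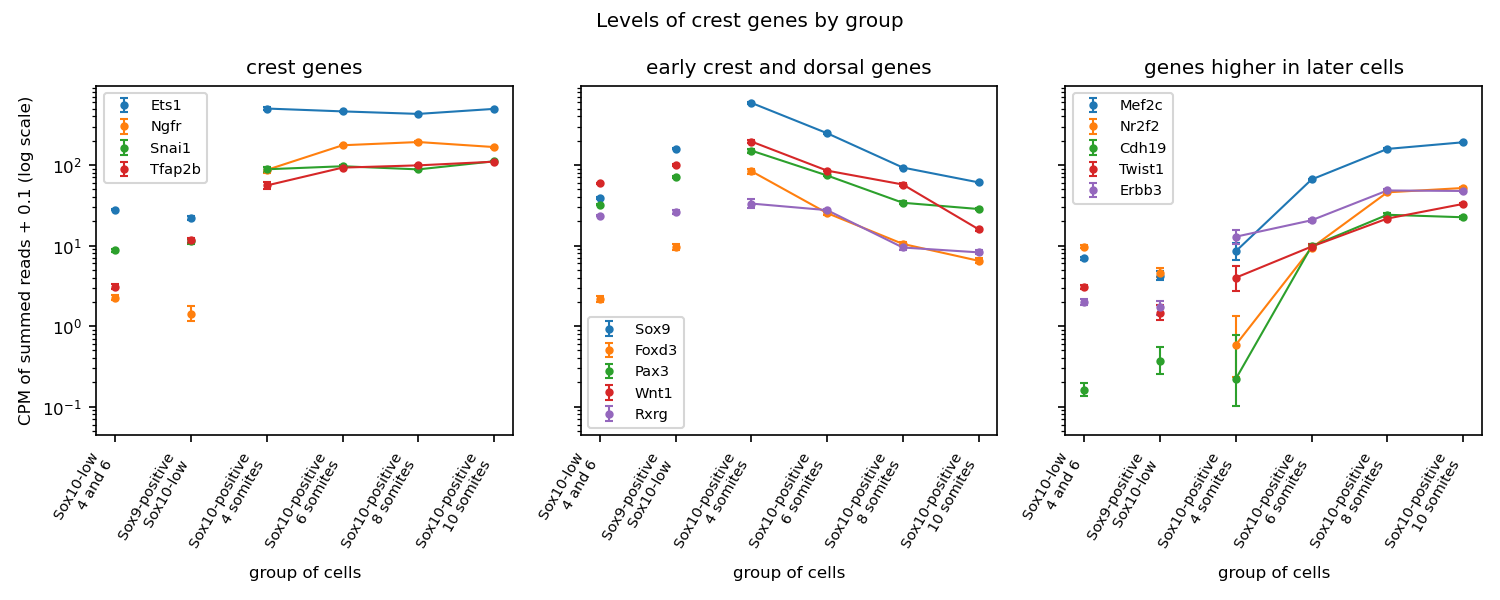
CPM of summed reads (+ 0.1, log axis) of 14 crest genes in Sox10-low cells of 4 and 6 somites, Sox9-positive Sox10-low cells, members of 4 and of 6 somites and later Sox10-positive cells, with 95% Poisson intervals. Lines join the Sox10-positive groups. Here the Sox10-low cells are not weighted by plate. Ets1 stands above 400 CPM in every Sox10-positive group, Sox9 is highest in members of 4 somites and Mef2c in cells of 10 somites.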

How the data were processed

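Single-cell Smart-Seq2 libraries were made with Nextera XT, per the labels' protocols. The build was mm10, and bcl2fastq 2.18 and STAR 2.6 were used, per the submitters' processing notes. A read counter and annotation, not given in the sources used here, cannot be stated. The authors deposited 1 table of raw read counts for 24920 genes in 1778 cells, without molecular identifiers. Cells with at least 50000 reads on genes other than spike-ins and 1500 detected genes were kept, with median depths of 831634 reads on genes in members and 910253 in Sox10-low cells, Rn45s taking 58.9% and 58.8%. This left 241 members, 761 Sox10-low cells (127 of them Sox9-positive), and 146 and 339 Sox10-positive cells of 8 and 10 somites. Plates A, B, D, E, F and H carry the numbers 6150653, 6150657, 6150663, 7350589, 7350590 and 7350658. Members and gene lists were chosen with earlier results of these data known. Reads were summed per group. Comparison cells were weighted to the members' share of reads in each stage and plate, except between stages. Log2 ratios used 0.5 added reads, and a gene was read at 5 CPM or more in either group. Named genes were the 12 (Sox10-low comparison) or 6 (others) largest ratios each way among genes with 50 CPM, a read in 20% of cells after thinning to 50000 reads and 1 sign in every set with at least 5 cells per group, plus up to 4 per list, all crest transcription factors, Sox10, Actc1, Wnt1, Pou5f1 and Nanog. Other genes were named after their values were seen, and a few genes of these lists are counted but not reported here by name. Intervals are exact Poisson or binomial at 95%. With 1 pool per stage no count model was tested, and edgeR 4.0.16 and DESeq2 1.42.0 (R 4.3.3) served only as scaling alternatives. Other alternatives changed the member limits, the level minimum, the filter on cells, the added reads, the plates and the weights, and left out cells with markers of other types. Python 3.11.15, numpy 2.4.6, pandas 2.3.3 and scipy 1.17.1 were used. On simulated counts of 9929 genes for the Sox10-low comparison, 98.0% of genes made 4-fold higher and 0.8% of unchanged genes passed 2-fold. Of genes made 2-fold higher 52.0% passed, and of those made 2-fold lower 50.0%. Simulated cells of a plate shared 1 mean per gene apart from the set change, so mixtures of cell types were not covered.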

Additional observations from a re-analysis of the deposited data

Results flagged for a closer look

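The log2 ratio of Sox10-positive against Sox10-low cells was compared between the 4 plates of 6 somites with enough cells for each of 97 genes named in the text. A ratio was picked out where its gap to the nearest plate took a share of the whole range above Dixon's 95% critical value, which chance alone does in about 1 in 20 groups. This held for 12 genes. On plate F, which has 11 members, Tfap2b was at 6.72 (3.94 to 4.32 on the others), Ednrb at 5.10 (3.83 to 3.96), Irs4 at -4.52 (-3.27 to -3.14), Trp53i11 at -0.83 (-2.39 to -2.13), Irx3 at -0.66 (-1.38 to -1.30), Tfap2a at 1.03 (2.42 to 2.67), Lmo4 at -0.79 (1.07 to 1.37), Sox6 at -4.72 (0.44 to 0.90) and Nr2f2 at -6.35 (-0.97 to -0.65). Nr2f2 had 0 reads in those members, so its value rests on the added reads. Otx2 was at -4.79 on plate E (-2.16 to -2.03), Id3 at 1.43 on plate B (1.15 to 1.16) and Slc2a1 at -0.99 on plate H (-1.27 to -1.23).

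For 2 genes the 4 somite plate lay on the other side of 0 from every 6 somite plate, with every ratio past a set minimum size. Genes with smaller ratios of opposite sign were not picked out. Nrp1 was at 0.58 at 4 somites and from -2.13 to -1.07 at 6 somites, and Pdgfra at -0.69 and from 0.72 to 2.25. These differences between stages were not tested.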

How the results depend on the processing

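No paired analysis was possible because the labels give no replicate numbers and no test was made, and ratios within each stage and plate stand in the report instead. Of 150 counts of 2-fold genes under alternatives, 29 moved by over 1.5 times, and they are given as percent of genes tested, higher then lower. With no minimum level these were 10.1% and 21.1% (Sox10-low), 19.7% and 15.2% (Sox9-positive), 15% and 12.3% (8 against 6 somites) and 23.8% and 10.5% (6 against 4 somites). With 20 CPM they were 1.83% and 4.02%, 2.62% and 4.12%, 2.70% and 1.58%, and 4.36% and 2.62%. Without cells with markers of other types 4.30% were higher than in Sox10-low cells and 8.47% than in Sox9-positive cells, and between 6 and 4 somites 25.8% were higher and 11.4% lower. At 4 somites alone 5.46% were higher and 12.7% lower than in Sox10-low cells. With Rn45s in the total 5.78% were lower than in Sox10-low cells and 2.52% at 8 than at 6 somites. Without plate E, 8.36% were higher than in Sox9-positive cells. All plates gave 2.77% and 2.71% for 8 against 6 somites, and plate F alone 23% and 17.6% for 6 against 4 somites. The cause was not tested.

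Single genes changed sign in 16 cases. Without cells with markers of other types these were Pdgfrb (2.95), Epcam (0.17), Cldn6 (0.73), Cldn7 (2.38), Foxc1 (1.35), Foxc2 (6.79) and Fgf5 (0.08). At 4 somites alone they were Sox8 (-0.96), Itga4 (-0.56), Nrp1 (0.18) and Pdgfra (-0.26). Slc5a3 was at -0.58 with all plates, Hba-x at -0.42 with no Actc1 limit, and Tenm4 at 0.60, Sdc3 at -1.33 and Cdk18 at -0.31 on plate F alone. The 2 alternatives that used only plates with at least 5 cells per group were chosen after seeing the data. The 18 members of 4 somites limit what can be read at that stage.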
